A study of Caenorhabditis elegans with 26 samples.

Results

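The abu and pqn genes of Caenorhabditis elegans were taken as every row of the deposited count table whose symbol is abu- or pqn- followed by a digit. The rule found 75 genes, 14 abu and 61 pqn, among the 42533 rows of the table, and it used no measured value. Poly(A) RNA of whole day 1 adults was sequenced in 26 libraries of 5 strains that differ in how much of the neuropeptide gene flp-17 they express, with 200 to 500 animals behind each sample. All 5 strains carry the reporter zcls4[hsp-4p::GFP]V, in which the promoter of the chaperone gene hsp-4 drives GFP.

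AEF276 (5 libraries) carries the flp-17 loss-of-function allele flp-17(n4894)IV. AEF378 (5 libraries) carries the array ashEx67, in which the gcy-31 promoter drives FLP-17 fused to GFP, with coel::RFP as its marker. AEF373 (5 libraries) carries an array in which the flp-17 promoter drives untagged FLP-17, with an unc-122p::mCherry marker. AEF149 (5 libraries) carries the array ssrEx1193, in which the flp-17 promoter drives FLP-17 fused to GFP, with myo-3p:mCherry as its marker. AEF231 (6 libraries) has the reporter alone and is the strain the others are set against; it was made by outcrossing SJ4005 to N2, and AEF276, AEF378 and AEF373 share its background, whereas AEF149 has that of SJ4005. The flp-17 and gcy-31 promoters are active in the BAG sensory neurons. The arrays are extrachromosomal and are not passed to every animal, so 24 h before collection a large particle sorter picked animals of AEF378, AEF373 and AEF149 that showed the marker, and those of AEF276 and AEF231 were washed and replated at that time. The effect of sorting and that of the array cannot be told apart in the comparisons of an array strain with AEF231, and in AEF149 the strain background cannot be told apart from either. The labels give 2 batches: 20 libraries are in batch 1 and 6 in batch 2, which holds 2 libraries each of AEF378, AEF373 and AEF231. They also give a group number from 1 to 5, whose meaning is not stated.

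The pqn name stands for a prion-like domain rich in glutamine and asparagine, and the family is defined by that composition rather than by one function. The abu name stands for activated in blocked unfolded protein response: abu-1 and its relatives were described as genes induced by endoplasmic reticulum stress in worms that lack the transcription factor XBP-1. Several abu proteins and related pqn proteins, ABU-14 among them, are secreted and build the cuticle that lines the pharynx, the feeding organ, and their transcripts come and go with each larval moult. Regulators described for abu genes include the engulfment receptor CED-1 and the neuronal receptor OCTR-1.

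The number of counted reads ranged from 9659877 to 15528669 per library. Levels are given in CPM, a gene's count per 1e6 reads of the library. The library's reads were summed over genes that passed a filter on low counts and scaled with the trimmed mean of M values (TMM). The flp-17 level followed the labels: it averaged 0.310 ± 0.307 CPM for the 5 libraries of AEF276 and 7.59 ± 1.01 CPM for the 5 of AEF378. It averaged 301 ± 29.3 CPM for the 5 of AEF373 and 388 ± 23.4 CPM for the 5 of AEF149, against 3.80 ± 1.49 CPM for the 6 of AEF231 (each ± SD). The level of hsp-4, the gene of an endoplasmic reticulum chaperone, averaged 567 CPM in AEF276 libraries, 504 CPM in those of AEF378, 459 CPM in those of AEF373 and 526 CPM in those of AEF149, against 467 CPM in AEF231.

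Of the 75 genes, 49 passed the filter on low counts and were tested, 4 of them abu genes and 45 pqn genes. The other 26 genes, 10 abu and 16 pqn, had enough reads in too few libraries or in none. Most abu genes therefore had few reads in most libraries of these adults. Together the 75 genes took 0.444 ± 0.0107% of the counts of AEF276 and 0.427 ± 0.0152% of those of AEF378 (SD, n = 5 each). They took 0.432 ± 0.00876% of the counts of AEF373 and 0.444 ± 0.00532% of those of AEF149 (n = 5 each), against 0.420 ± 0.0179% in AEF231 (n = 6). These shares come almost wholly from pqn genes: the 14 abu genes summed to between 1.95 and 46.0 CPM in any of the 26 libraries, and the 61 pqn genes to at least 4016 CPM in each.

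Read levels per kilobase of exon differed widely between members. In AEF231 pqn-59, the worm relative of the stress granule protein UBAP2L, had the highest level at 538 CPM per kb, followed by pqn-87 at 124 CPM per kb and pqn-52 at 116 CPM per kb. The abu genes that could be tested were all low in AEF231, with abu-11 at 0.897 CPM per kb, abu-14 at 0.602 CPM per kb, abu-13 at 0.313 CPM per kb and abu-12 at 0.112 CPM per kb. In AEF373 the per-length levels were 6.55 CPM per kb for abu-14 and 3.51 CPM per kb for abu-13, so that even there each stood far under pqn-59, at 499 CPM per kb. Lengths were available for the 70 members that the annotation places; pqn-44, pqn-60, pqn-85, pqn-97 and pqn-98 were not placed under those symbols.

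The 70 placed members are scattered over the genome. On assembly WBcel235 (the ce11 coordinates), 6 abu genes lie on chromosome V, 4 on X, 2 on II and 1 each on III and IV, and the pqn genes lie on every chromosome. Of these, 15 lie within 20 kb of another member. A close group on chromosome IV holds pqn-76 (15579086 to 15580161), abu-5 (15590697 to 15591772), pqn-78 (15593960 to 15595035) and pqn-79 (15595570 to 15596645), each with 1008 bp of exon. All 4 of these genes had 0 reads in every library. A count of 0 allows up to 3 reads per library, which is 0.193 to 0.311 CPM. The sources used here do not say how reads that match several near-identical genes were counted, so a count of 0 in this group cannot be read as no transcript.

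AEF373 was set against AEF231 to ask what the array with the untagged peptide changed. In AEF373, 10 of the 18 tested members under 5 CPM rose, among them pqn-73 at a fitted fold of 86.6, abu-13 at 11.1 and abu-14 at 9.96, while 2 of the 16 members at 50 CPM or more rose and 4 fell. The filter on low counts can keep a gene for its reads in a single strain. For abu-12 and pqn-26 most libraries with enough reads were those of AEF373. These genes were therefore testable through the strain in which they are counted as rises. Of the 49 genes tested, 19 rose and 5 fell at an adjusted p below 0.05, against 17.9% of all 13315 genes tested that rose and 16.9% that fell. The members that rose are 38.8% of those tested, and those that fell are 10.2%. At least 2-fold rises were found for 8 members, against 5.54% of all genes. In 8 members every AEF373 library lay above every AEF231 library, and in 2 every one lay below, against 7.97% and 6.61% of all genes. The median log2 fold change was 0.17 over the members and -0.01 over all genes.

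The abu genes whose reads could be tested are given first. The gene abu-14 (chromosome II, 9225186 to 9227214, minus strand), a pharyngeal cuticle component, had 9.38, 9.97, 19.8, 2.99 and 3.89 CPM in AEF373, against a lowest value of 0.442 CPM, a median of 0.789 CPM and a highest value of 1.43 CPM in AEF231. Every AEF373 library was above every AEF231 library, with the third one highest and the fourth lowest. The log2 fold change was 3.32 ± 0.58 (SE), with an adjusted p of 0.000142. The raw counts behind this were 109, 101, 268, 30 and 52 reads in AEF373, against 5 to 17 reads in AEF231.

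The gene abu-13 (chromosome III, 6941888 to 6945898, minus strand) had 8.60, 6.91, 10.1, 2.39 and 4.34 CPM in AEF373, against 0.169, 0.639 and 0.818 CPM as the lowest, median and highest value in AEF231. The strains did not overlap, and the log2 fold change was 3.48 ± 0.38, with an adjusted p of 9.95e-09. In the annotation, 19 bp of its exons overlap those of a neighbouring coding gene, F57B9.3.

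The gene abu-12 (chromosome X, 450446 to 457610, minus strand) had 1.98, 2.57, 3.99, 0.898 and 1.12 CPM in AEF373, against 0.0868, 0.217 and 0.951 CPM as the lowest, median and highest value in AEF231. The fourth AEF373 library lay under the highest AEF231 library, so the strains overlapped. The log2 fold change was 2.72 ± 0.49, with an adjusted p of 2.39e-05.

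The fourth testable abu gene differed from these. The gene abu-11 (chromosome II, 192509 to 194558, minus strand), whose overexpression has been reported to lengthen life, had 1.29, 0.790, 3.99, 1.10 and 1.57 CPM in AEF373, against 0.843, 1.10 and 1.79 CPM as the lowest, median and highest value in AEF231. Only the third AEF373 library was above the AEF231 range, and one was below it. The log2 fold change was 0.65 ± 0.34, with an adjusted p of 0.138. Without that library it was 0.15, with an adjusted p of 0.808, and without the second AEF373 library it was 0.89, with an adjusted p of 0.0461.

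Among the pqn genes pqn-73 (chromosome II, 8540712 to 8545393, plus strand) had the largest fold change. It had 10.4, 10.2, 14.6, 4.29 and 6.13 CPM in AEF373, against a lowest value of 0 CPM, a median of 0.0475 CPM and a highest value of 0.377 CPM in AEF231. The AEF231 libraries held 4, 0, 2, 1, 0 and 0 reads of pqn-73, and those of AEF373 held 121, 103, 197, 43 and 82 reads. The log2 fold change was 6.44 ± 0.48, with an adjusted p of 3.23e-12. With so few reads in AEF231, the size of this fold change depends on the small count that the fit adds to each library.

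A further 3 low-level pqn genes rose without overlap between the strains, as 7.97% of all genes lay wholly above AEF231. The gene pqn-13 (chromosome V, 5669604 to 5676111, minus strand) had 4.21, 5.03, 5.10, 1.10 and 2.39 CPM in AEF373, against 0, 0.271 and 0.951 CPM as the lowest, median and highest value in AEF231, a log2 fold change of 3.33 ± 0.42 (adjusted p = 4.1e-08). The gene pqn-32 (chromosome II, 13108019 to 13110169, plus strand) had 9.46, 10.3, 14.9, 4.39 and 3.59 CPM in AEF373, against 0.347, 1.02 and 2.57 CPM in AEF231, a log2 fold change of 2.94 ± 0.45 (adjusted p = 2.44e-05). In both genes the first 3 AEF373 libraries were the high ones and the last 2, from batch 2, the low ones. The gene pqn-26 had 1.55, 3.16, 4.29, 0.998 and 0.972 CPM in AEF373, against 0.0951, 0.389 and 0.955 CPM in AEF231, a log2 fold change of 2.23 ± 0.45 (adjusted p = 0.000135). Its exons share 74 bp with those of trt-1, the telomerase gene, and the margin between the lowest AEF373 value and the highest AEF231 value was small.

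The last rise of at least 2-fold was that of pqn-42, with 5.33, 6.71, 4.51, 1.90 and 3.81 CPM in AEF373, against 1.43, 2.06 and 2.73 CPM in AEF231. The fourth AEF373 library lay within the AEF231 range, and the log2 fold change was 1.16 ± 0.23 (adjusted p = 9.56e-05).

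**Figure D1:**
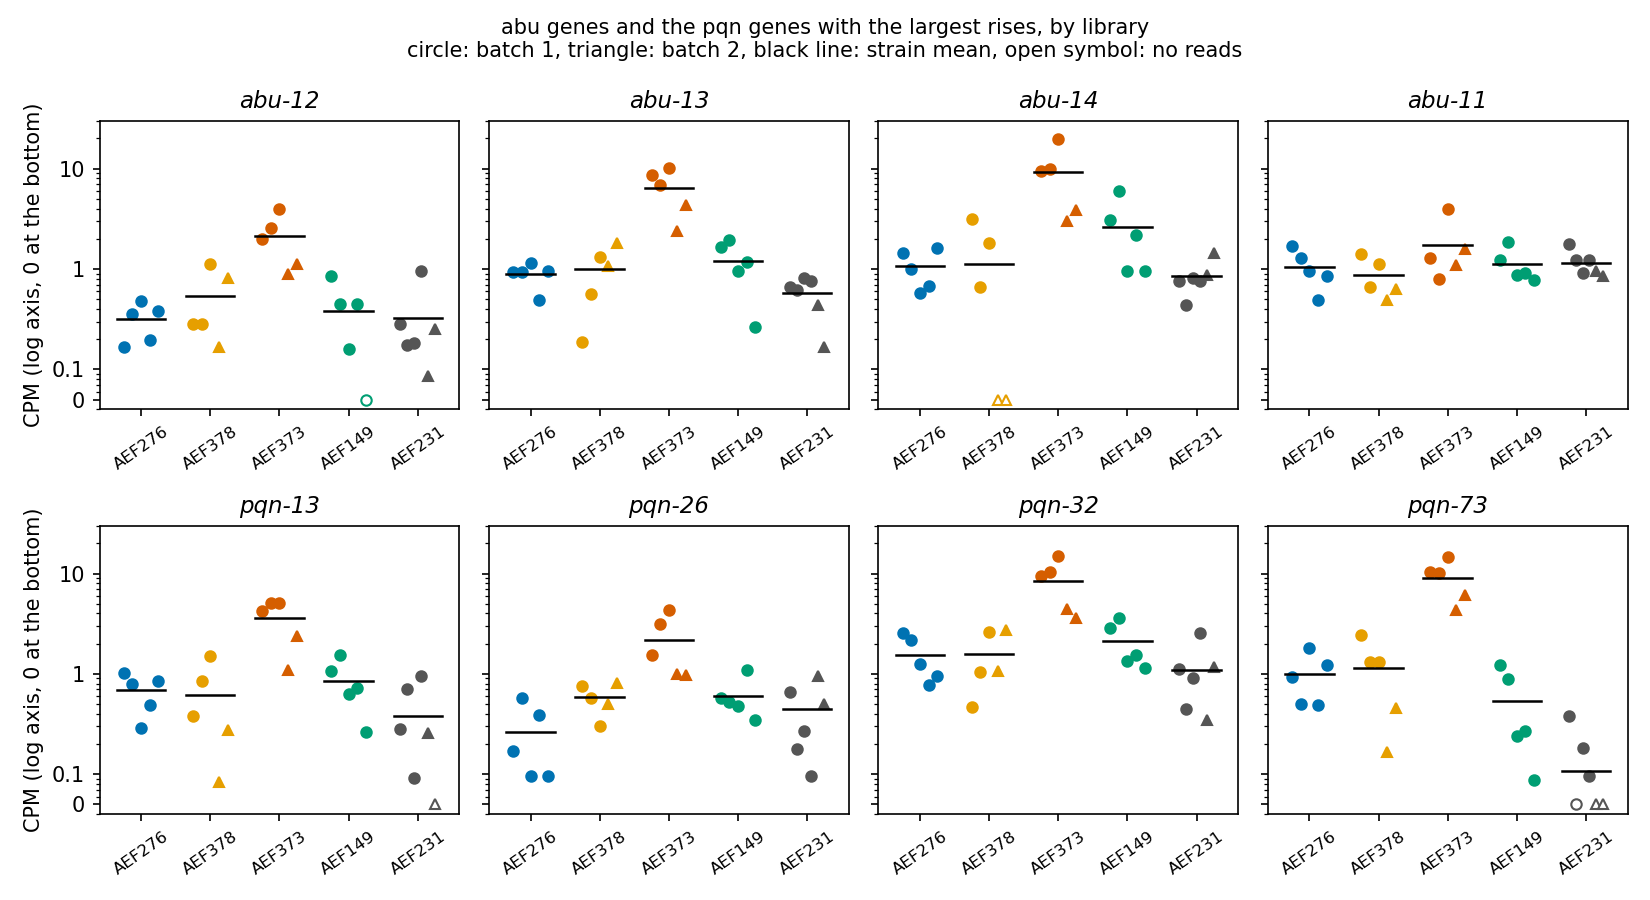
Level in CPM (vertical log axis, with libraries without reads drawn at the bottom) of the 4 testable abu genes and 4 pqn genes in each of the 26 libraries, by strain; circles are batch 1, triangles batch 2 and black lines strain means. The AEF373 libraries stand above those of AEF231 in abu-13, abu-14, pqn-13, pqn-26, pqn-32 and pqn-73, abu-11 overlaps in all strains, and the batch 2 libraries of AEF373 are lower than its batch 1 libraries in most panels.

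The other 11 members that rose in AEF373 did so by less than 2-fold. The gene pqn-75, expressed in the gland cells of the pharynx, had 15.8, 17.9, 16.8, 11.3 and 11.2 CPM in AEF373, against 6.16, 7.01 and 9.98 CPM as the lowest, median and highest value in AEF231. No library overlapped, and the log2 fold change was 0.93 ± 0.13 (adjusted p = 4.86e-07), although 202 bp of its exons overlap other annotated coding genes. The gene pqn-92 likewise had no overlap, with 24.5, 29.4, 24.1, 19.0 and 23.2 CPM in AEF373, against 12.3, 15.9 and 17.7 CPM in AEF231, a log2 fold change of 0.63 ± 0.10 (adjusted p = 5.1e-06). The smaller rises were those of pqn-60 (log2 fold change 0.85), pqn-36 (0.73), pqn-89 (0.53), pqn-18 (0.52), pqn-35 (0.47), pqn-94 (0.45), pqn-62 (0.36), pqn-41 (0.35) and pqn-44 (0.19). Of these, pqn-41 is needed for the death of the linker cell of the male gonad, and it averaged 119 CPM in AEF373 and 93.6 CPM in AEF231.

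The 5 members that fell in AEF373 were all pqn genes, and none fell by as much as 2-fold. The gene pqn-21 had 54.4, 60.01, 56.9, 61.1 and 63.0 CPM in AEF373, against 65.8, 70.6 and 78.3 CPM as the lowest, median and highest value in AEF231, with no overlap and a log2 fold change of -0.28 ± 0.06 (adjusted p = 0.000383). The others were pqn-68 (log2 fold change -0.36, adjusted p = 0.0151), pqn-70 (-0.21, 0.00254), pqn-27 (-0.17, 0.00872) and pqn-15 (-0.16, 0.0419). The count of falls was 3 without the second AEF373 library.

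**Figure D2:**
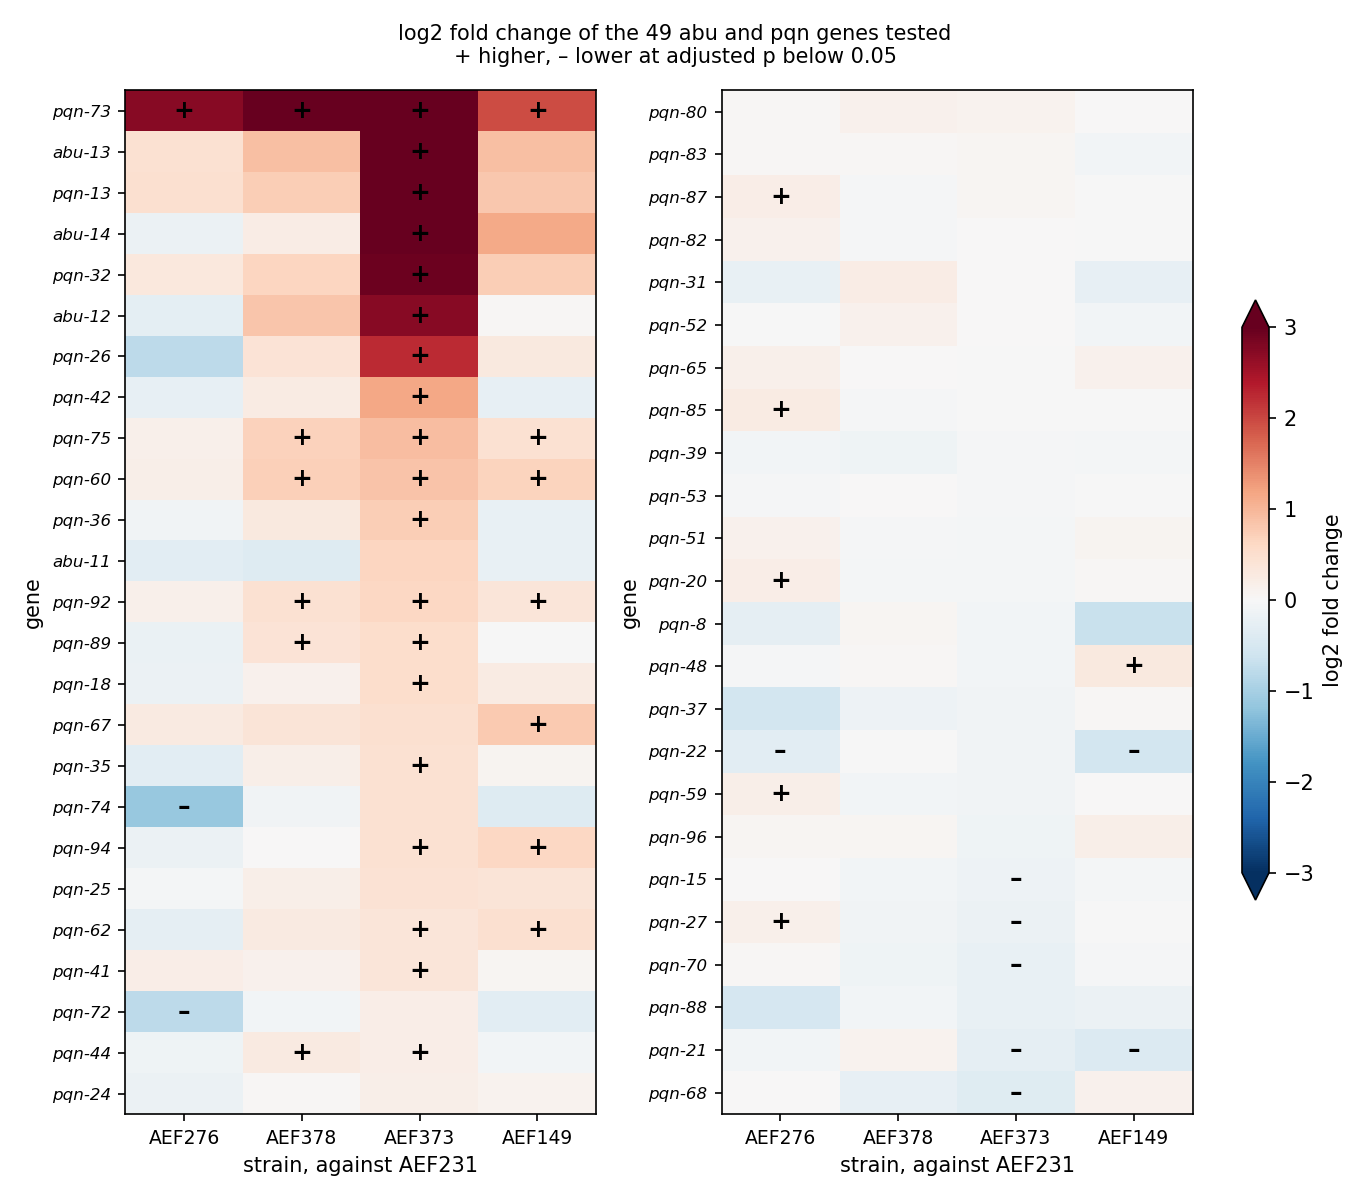
Log2 fold change against AEF231 (colour, cut at 3 either way) of the 49 abu and pqn genes tested, in rows ordered by the AEF373 value, for 4 strains in columns; + marks a rise and – a fall at an adjusted p below 0.05. AEF373 has 19 rises and 5 falls, and pqn-73 is the one member marked higher in all 4 strains.

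The rises sat among the genes of low and middle level. Of the 18 members whose mean over all libraries was under 5 CPM, 10 rose and 0 fell in AEF373, against 21.8% of all genes of that level that rose. Members and all genes passed the same filter, which can keep a low gene for its reads in a single strain. Of the 15 members from 5 to 50 CPM, 7 rose and 1 fell, against 22.6% and 12.7% of all genes of that level. Of the 16 members at 50 CPM or more, 2 rose and 4 fell, against 8.36% and 36.8% of all genes. The most abundant members moved little: the log2 fold changes of all 16 lay between those of pqn-21 and pqn-41.

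**Figure D3:**
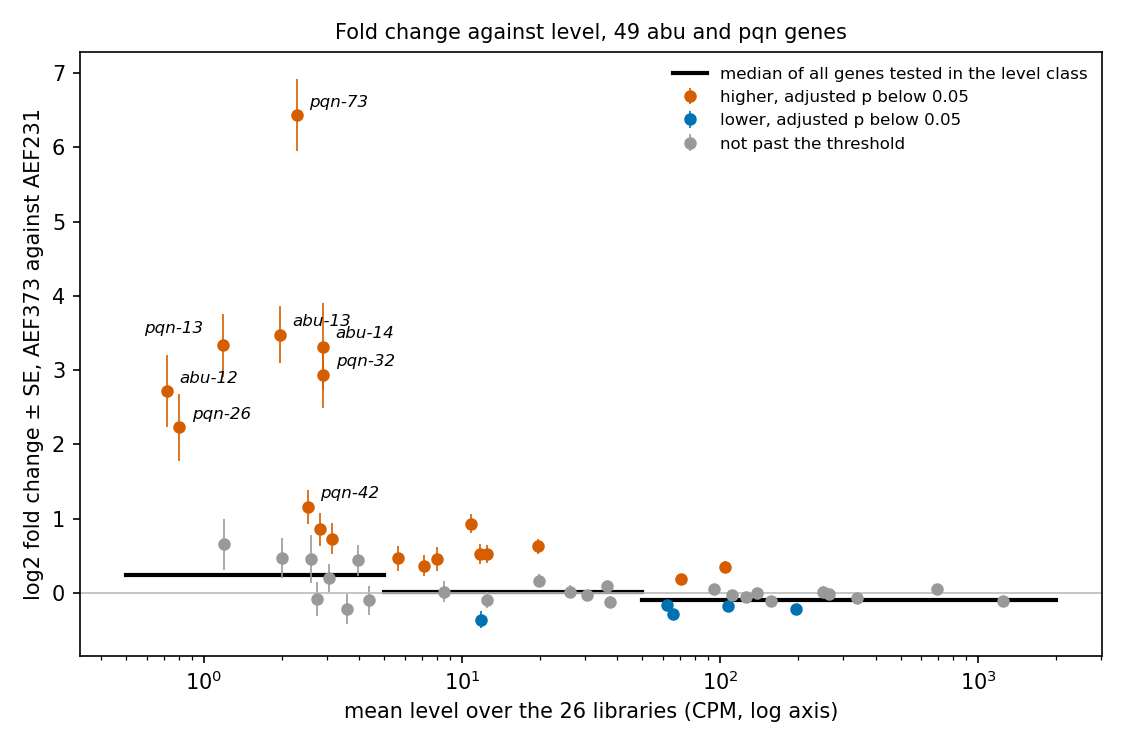
Log2 fold change with its SE (vertical axis) against mean level over the 26 libraries in CPM (horizontal log axis) for the 49 members in AEF373 against AEF231; black lines give the median of all genes tested under 5, from 5 to 50 and from 50 CPM. All 8 rises of at least 2-fold belong to members under 5 CPM, and members from 50 CPM lie between -0.28 and 0.35.

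The rises differed in size between libraries. Summed over the 14 abu genes the level was 24.5, 21.8, 46.0, 7.98 and 13.01 CPM in AEF373, against a lowest value of 2.86 CPM, a median of 3.93 CPM and a highest value of 5.04 CPM in AEF231. All 5 AEF373 libraries were above AEF231, and both batch 2 libraries were below all 3 of batch 1. Fitted within each batch, abu-13 had a log2 fold change of 3.58 in batch 1 and 3.46 in batch 2, and pqn-13 had 3.23 and 3.68. For abu-14 the values were 4.25 in batch 1 and 1.57 in batch 2, and for pqn-26 they were 3.30 and 0.42. For pqn-73 they were 6.11 in batch 1 and 8.88 in batch 2, where AEF231 had no read. In a test of the difference between batches, 0 of the 49 members passed in edgeR at an adjusted p below 0.05 and 7 had an unadjusted p below 0.05, against 62 and 1264 of the 12999 genes in that fit, among them abu-14 (unadjusted p = 0.000916, adjusted p = 0.1003). Within batch 1, 17 members rose and 4 fell in AEF373, and within batch 2, with 2 libraries of each strain, 5 rose and 0 fell in the same fit of both batches. The shares over all genes in each batch are not given here, so the lower count is not read as a trait of the members. Without the third AEF373 library, the highest for abu genes, the log2 fold changes were 2.97 for abu-14, 3.31 for abu-13 and 2.45 for abu-12.

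The members that could not be tested had few reads in AEF373 too. The gene abu-8 had 20, 15, 79, 2 and 10 reads in AEF373, against 5, 5, 3, 2, 1 and 5 reads in AEF231. The gene abu-10 had 6, 1, 23, 1 and 5 reads in AEF373, against 0, 2, 0, 1, 2 and 0 reads in AEF231. In both the third AEF373 library held the most reads and the fourth overlapped AEF231, as did the second in abu-10. The gene pqn-29 had 3, 5, 13, 6 and 30 reads in AEF373, against 0, 1, 3, 2, 0 and 1 reads in AEF231, and the first AEF373 library overlapped AEF231. The strains overlapped in pqn-54, with 0, 5, 17, 1 and 4 reads in AEF373, against 4, 16, 9, 4, 7 and 2 reads in AEF231. The gene abu-1, which gave the family its name, had 8, 0, 2, 0 and 4 reads in AEF373, against 2, 9, 3, 2, 0 and 3 reads in AEF231, and the strains overlapped. Together the 26 untested members had 53, 40, 179, 28 and 70 reads in AEF373, against 13, 56, 23, 19, 14 and 19 reads in AEF231.

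Genes of moulting and of the cuticle were higher in the same libraries. Over all genes tested 17.9% rose and 16.9% fell in AEF373 against AEF231. Of 25 genes known for moulting and larval cuticle, 15 rose and 0 fell in this comparison, with a median log2 fold change of 0.73. Their lead genes by adjusted p were noah-1 (log2 fold change 2.71 ± 0.12), which encodes a cuticle matrix protein, acn-1 (2.53 ± 0.18) and noah-2 (2.79 ± 0.15). Of 6 furrow collagens 4 rose, with dpy-10 (2.20 ± 0.16), dpy-2 (3.22 ± 0.28) and dpy-7 (4.02 ± 0.32) leading. Of 5 genes listed for the pharyngeal cuticle and its regulators 4 rose: the chitin synthase gene chs-2 (1.11 ± 0.13), the pharyngeal organ identity gene pha-4 (1.36 ± 0.16), peb-1 (1.196 ± 0.249) and ceh-22 (1.96 ± 0.45), which is also one of the pharyngeal muscle genes. The moulting genes summed to 989, 949, 973, 819 and 820 CPM in AEF373, against 610 to 664 CPM in AEF231. The furrow collagens summed to 69.6, 58.9, 54.1, 29.7 and 36.4 CPM in AEF373, against 7.42 to 13.7 CPM in AEF231. In both lists, too, the batch 2 libraries of AEF373 were its lowest and lay above AEF231. These lists were written with earlier results of these data known. The part of these genes in the abu and pqn values was not tested. In whole animals a change in the number of cells of a type and a change in RNA per cell cannot be told apart.

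**Figure D4:**
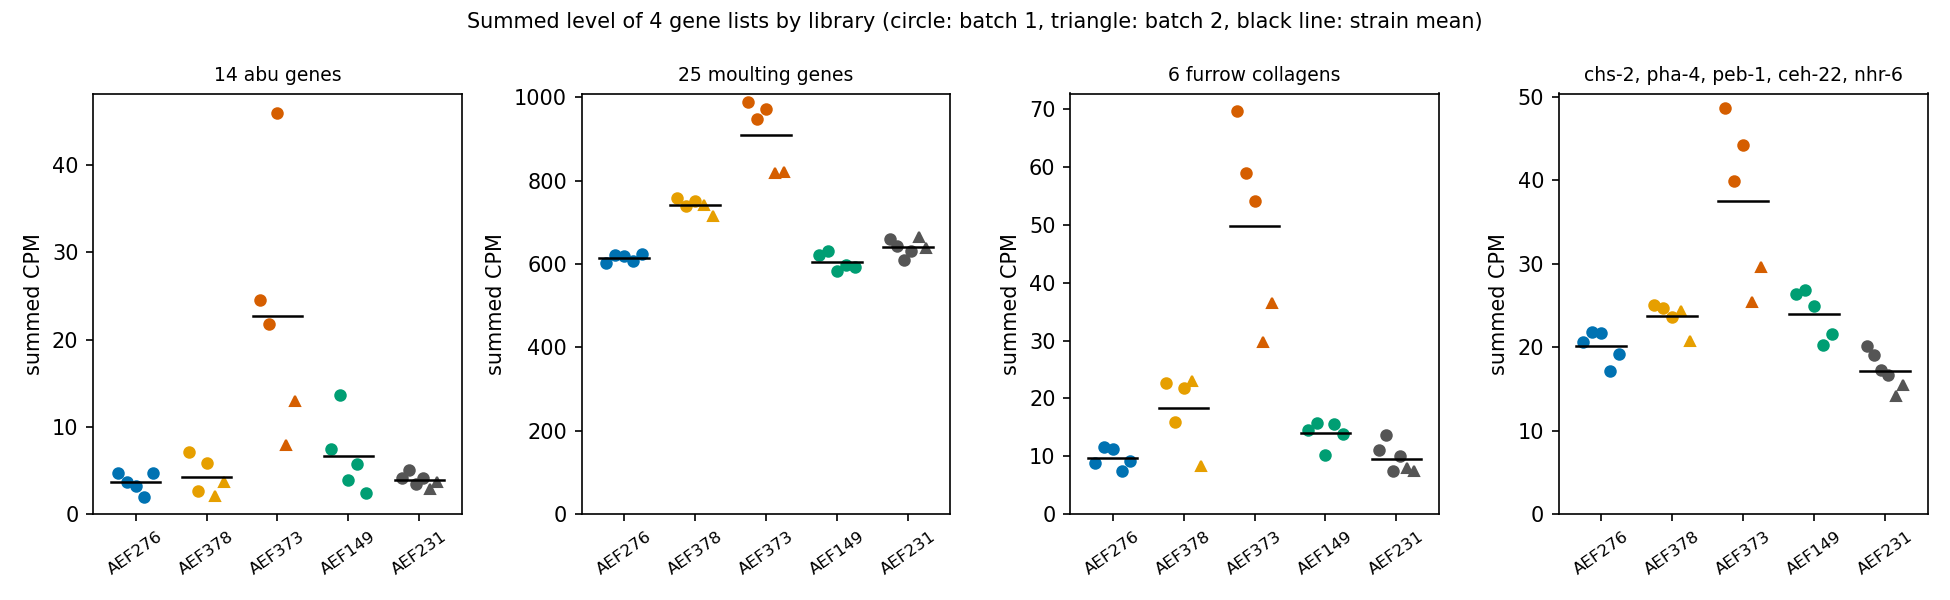
Summed CPM by library of the 14 abu genes, 25 moulting genes, 6 furrow collagens and 5 pharyngeal cuticle genes and regulators, by strain; circles are batch 1, triangles batch 2 and black lines strain means. In each panel the AEF373 libraries are above those of AEF231, and in AEF373 the batch 2 libraries are the lowest.

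Markers of pharyngeal and other cells were read beside these. Of 9 pharyngeal muscle genes 5 rose and 0 fell in AEF373, with a median log2 fold change of 0.41 and the myosin genes myo-5 (0.54) and myo-2 (0.51) among them, and their summed level was 308 to 338 CPM in AEF373, against 195 to 280 CPM in AEF231. Of 6 pharyngeal gland genes tested 2 rose and 0 fell, phat-5 (4.31) and phat-2 (2.21), and the gland list summed to 39.2 to 60.3 CPM in AEF373, against 27.2 to 41.7 CPM in AEF231. No gene of either list was at 0 in any strain. Of 5 embryo and hatching genes tested 1 rose, hch-1 (3.45), which encodes the hatching protease, and 1 fell, pes-10 (-0.96); the list summed to 114 to 136 CPM in AEF373, against 100 to 118 CPM in AEF231. Of 8 sperm genes 0 rose and 2 fell, msp-49 (-0.71) and msp-10 (-0.84), and of 11 oocyte and eggshell genes 0 rose and 3 fell, oma-1 (-0.18), egg-1 (-0.17) and chs-1 (-0.14). Over all genes tested 17.9% rose and 16.9% fell in AEF373, and of those at 50 CPM or more 8.36% rose and 36.8% fell. The part of these markers in the abu and pqn values was not tested.

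The unfolded protein response, whose block gave the abu genes their name, was read as well. Its part in the abu and pqn values was not tested. Of 20 genes of the canonical unfolded protein response of the endoplasmic reticulum, 5 rose and 2 fell in AEF373, led by the disulfide isomerase genes pdi-6 (log2 fold change 0.32) and pdi-2 (0.39) and the calreticulin gene crt-1 (0.25), with sel-1 (-0.14) and sel-11 (-0.12) lower. The median over these 20 genes was 0.06. Against AEF231 the same 20 genes gave 4 rises and 1 fall in AEF276, and 6 rises and 0 falls in AEF378. They gave 2 rises and 4 falls in AEF149. Over all genes tested 17.9% rose and 16.9% fell in AEF373, and 11.2% rose and 9.08% fell in AEF276. The shares were 7.68% and 5.92% in AEF378, and 6.51% and 11% in AEF149. The gene hsp-4 had a log2 fold change of -0.03 ± 0.06 in AEF373 (adjusted p = 0.753). By edgeR it was higher in AEF276 (0.28 ± 0.06, adjusted p = 0.00121) and in AEF149 (0.17 ± 0.06, adjusted p = 0.0492). In AEF378 it was 0.11 ± 0.06 (adjusted p = 0.224). Of 6 regulators described for abu genes 1 rose in AEF373, ced-1 (0.17 ± 0.06, adjusted p = 0.0146), and octr-1 had a log2 fold change of 0.01 ± 0.30 there (adjusted p = 0.978).

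AEF378 was set against AEF231 to ask what the array with the lower flp-17 level changed. In AEF378 6 members rose and 0 fell, against 7.68% of all genes that rose and 5.92% that fell; by edgeR 0 members fell at the adjusted threshold, 2 had a negative change at an unadjusted p below 0.05, and DESeq2 called 0 lower. The median log2 fold change was 0.06 over the members and 0.01 over all genes. The gene pqn-73 had 2.46, 1.33, 1.32, 0.165 and 0.455 CPM in AEF378, against 0 to 0.377 CPM in AEF231. The fourth AEF378 library fell within the AEF231 range, and the log2 fold change was 3.34 ± 0.63 (adjusted p = 0.000376). The gland gene pqn-75 had 10.6, 13.2, 13.3, 11.997 and 11.3 CPM in AEF378, against 6.16, 7.01 and 9.98 CPM in AEF231, with no overlap and a log2 fold change of 0.68 ± 0.14 (adjusted p = 0.000498). The gene pqn-92 had 20.2, 23.7, 22.6, 21.7 and 18.1 CPM in AEF378, against 12.3 to 17.7 CPM in AEF231, again with no overlap and a log2 fold change of 0.45 ± 0.10 (adjusted p = 0.0021). The remaining rises were those of pqn-60 (0.70), pqn-89 (0.41) and pqn-44 (0.28).

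No abu gene passed the test in AEF378. The gene abu-14 had 3.12, 0.664, 1.83, 0 and 0 CPM in AEF378, against 0.442, 0.789 and 1.43 CPM in AEF231, and the log2 fold change was 0.23 ± 0.74 (adjusted p = 0.884). It was -0.50 without the first AEF378 library, -0.01 without the second AEF231 library and -0.26 by DESeq2. Both batch 2 libraries of AEF378 had no read of abu-14, and with batch 2 alone the log2 fold change was -6.76 (adjusted p = 0.00138), a value that rests on the small count added to libraries without reads. The gene abu-11 had a log2 fold change of -0.40 ± 0.38 (adjusted p = 0.548). Of the 25 moulting genes 11 rose in AEF378, and of the 6 furrow collagens 4 rose, against 7.68% of all genes. The pharyngeal muscle list had 3 rises of 9 genes and the gland list 0 of 6.

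AEF276 was set against AEF231 to ask what loss of flp-17 changed. In AEF276 6 members rose and 3 fell, against 11.2% of all genes that rose and 9.08% that fell, and the median log2 fold change was -0.03 over the members and 0.0047 over all genes. The count of rises was 2 without the second AEF276 library, 2 without the third and 2 without the first AEF231 library. It was 3 without replicate 2, 3 or 6 of AEF231 or without the fourth library of AEF373, which enters the same fit; the cause was not tested. The gene pqn-73 had 0.928, 0.503, 1.81, 0.488 and 1.24 CPM in AEF276, against 0 to 0.377 CPM in AEF231, with no overlap and a log2 fold change of 2.73 ± 0.65 (adjusted p = 0.00338). The counts were 5 to 19 reads in AEF276, against 0 to 4 reads in AEF231.

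The other 5 rises in AEF276 were small and belonged to members of 50 CPM or more, a level at which 30% of all genes rose. The gene pqn-85, the worm orthologue of the cohesin loader NIPBL, averaged 307 ± 28.3 CPM in AEF276 and 256 ± 18.5 CPM in AEF231, a log2 fold change of 0.25 ± 0.06 (adjusted p = 0.00422). The gene pqn-59, the relative of UBAP2L, averaged 1425 ± 124 CPM in AEF276 and 1244 ± 103 CPM in AEF231 (log2 fold change 0.18, adjusted p = 0.0265), with overlapping libraries. The others were pqn-20 (0.19), pqn-87 (0.19) and pqn-27 (0.15), and no AEF276 range was clear of AEF231 in any of the 5. Of 11 oocyte and eggshell genes, which share this high level, 9 rose in AEF276; their part in these values was not tested.

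The 3 members that fell in AEF276 were pqn-22, pqn-72 and pqn-74. The gene pqn-22 (chromosome IV, 6019672 to 6033639, minus strand) had 135, 137, 138, 148 and 139 CPM in AEF276, against 157, 178 and 200 CPM as the lowest, median and highest value in AEF231, with no overlap and a log2 fold change of -0.32 ± 0.06 (adjusted p = 8.71e-05). The gene pqn-72 had 1.52, 2.66, 1.62, 1.76 and 2.00 CPM in AEF276, against 3.04 to 3.71 CPM in AEF231, also with no overlap and a log2 fold change of -0.78 ± 0.21 (adjusted p = 0.00788). The gene pqn-74 had 0.506, 2.23, 0.859, 1.37 and 1.90 CPM in AEF276, against 1.88 to 3.71 CPM in AEF231; the strains overlapped, and the log2 fold change was -1.14 ± 0.38 (adjusted p = 0.0345). In the same libraries all 8 sperm genes listed fell, against 9.08% of all genes. Their summed levels were 0.844 to 3.62 CPM in AEF276, against 23.3 to 50.8 CPM in AEF231. The part of sperm transcripts in the 3 falls was not tested. Among the abu genes abu-14 had 0.573 to 1.62 CPM in AEF276, against 0.442 to 1.43 CPM in AEF231, and a log2 fold change of -0.17 ± 0.76 (adjusted p = 0.906); its sign was positive in batch 1 alone (0.60), without the batch term (0.32), with the replicate number in the fit (0.27) and without the sixth AEF231 library (0.21). The value for abu-11 was -0.31 ± 0.38 (adjusted p = 0.613). The 14 abu genes summed to 1.95 to 4.73 CPM in AEF276, against 2.86 to 5.04 CPM in AEF231.

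AEF149 was set against AEF231 to ask what the array with the highest flp-17 level changed, in another strain background. In AEF149 8 members rose and 2 fell, against 6.51% of all genes that rose and 11% that fell, and the median log2 fold change was 0.02 over the members and -0.01 over all genes. The count of rises was 3 without the second AEF149 library, 5 without the fourth, 2 without the third AEF231 library and 4 without the second AEF231 library. The rises were those of pqn-73 (log2 fold change 1.96 ± 0.70, adjusted p = 0.0499897), pqn-67 (0.78), pqn-60 (0.66), pqn-94 (0.62), pqn-62 (0.48), pqn-75 (0.45), pqn-92 (0.37) and pqn-48 (0.30). The gene pqn-94 had 9.66, 12.3, 9.44, 13.6 and 9.51 CPM in AEF149, against 5.36, 7.06 and 8.05 CPM as the lowest, median and highest value in AEF231, with no overlap (adjusted p = 0.00523). The gene pqn-73 had 1.22, 0.891, 0.238, 0.272 and 0.0872 CPM in AEF149, against 0 to 0.377 CPM in AEF231, so that only the first 2 AEF149 libraries were above AEF231, and its call was lost without either of those, as it was without any of libraries 2 to 6 of AEF231.

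The 2 falls in AEF149 were those of pqn-22 and pqn-21. The gene pqn-22 had 118, 117, 120, 131 and 107 CPM in AEF149, against 157, 178 and 200 CPM as the lowest, median and highest value in AEF231, a log2 fold change of -0.55 ± 0.06 (adjusted p = 5.87e-10). The gene pqn-21 had 55.2, 56.1, 49.3, 56.6 and 44.6 CPM in AEF149, against 65.8, 70.6 and 78.3 CPM in AEF231, a log2 fold change of -0.42 ± 0.06 (adjusted p = 3.14e-06). No AEF149 library overlapped AEF231 in either gene; 2 of 49 members lay wholly below AEF231 in this way, against 7.91% of all genes. All 8 sperm genes fell here too, with summed levels of 3.89 to 8.46 CPM in AEF149, against 23.3 to 50.8 CPM in AEF231, and their part in the falls was not tested. Of the 9 pharyngeal muscle genes 6 rose and 1 fell in AEF149, and of the 6 gland genes 3 rose and 1 fell. Of the 25 moulting genes 3 rose and 3 fell. Over all genes tested 6.51% rose and 11% fell in AEF149.

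No abu gene passed the test in AEF149. The gene abu-14 had 3.08, 6.02, 0.952, 2.18 and 0.960 CPM in AEF149, against 0.442, 0.789 and 1.43 CPM in AEF231, with 3 libraries above the AEF231 range and 2 within it, and a log2 fold change of 1.15 ± 0.66 (adjusted p = 0.267). With only these strains in the fit it was 1.94 (adjusted p = 0.0231), with batch 1 alone it was 1.97 (adjusted p = 0.0411), and without the filter on low counts it was 1.16 (adjusted p = 0.00109). The value for abu-11 was -0.22 ± 0.37 (adjusted p = 0.762). The 14 abu genes summed to 7.51, 13.7, 3.97, 5.71 and 2.44 CPM in AEF149, against 2.86 to 5.04 CPM in AEF231.

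**Figure D5:**
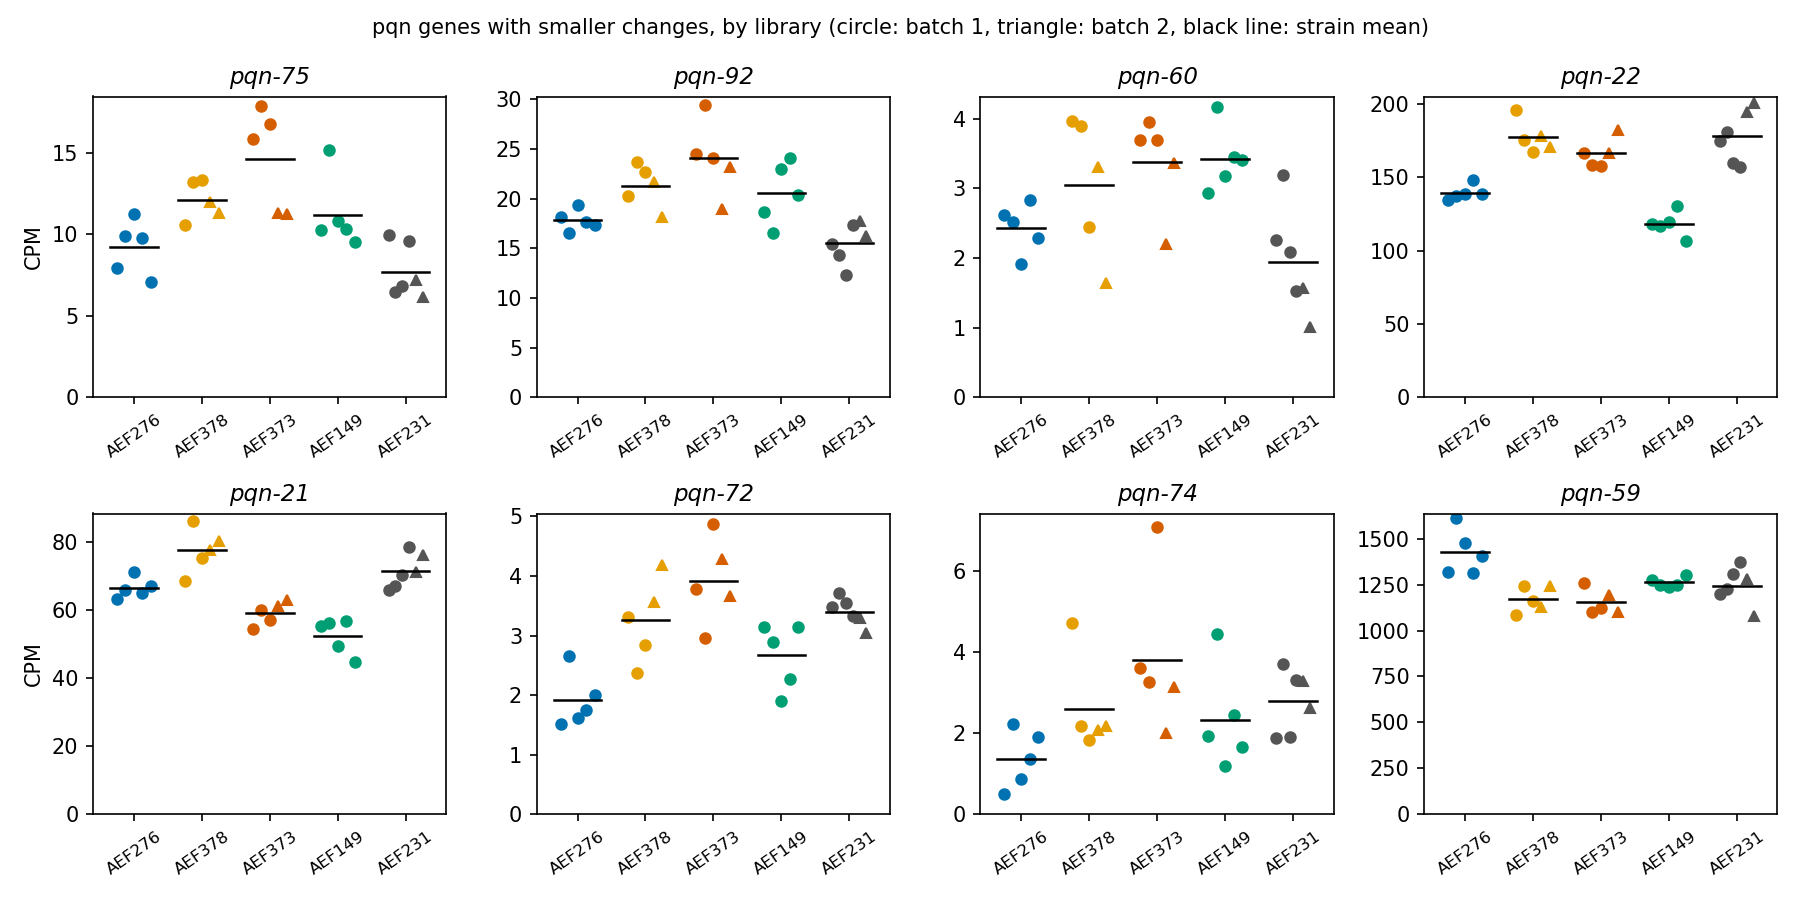
Level in CPM (vertical axis from 0) of 8 pqn genes with smaller changes in each of the 26 libraries, by strain; circles are batch 1, triangles batch 2 and black lines strain means. The libraries of AEF276 and AEF149 lie below those of AEF231 in pqn-22, those of AEF373 and AEF149 do so in pqn-21, and those of AEF378 and AEF373 lie above AEF231 in pqn-75 and pqn-92.

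The array strains were also compared directly. AEF373 and AEF378 share background and sorting but differ in promoter, tag and marker as well as in flp-17 level. AEF373 against AEF378 gave 8 members higher and 1 lower, against 5.92% of all genes higher and 3.68% lower. The median log2 fold change was 0.09 over the members and -0.0033 over all genes. Of those 8, 7 differed by at least 2-fold, against 2.01% of all genes. As in the comparison with AEF231, abu-12 and pqn-26 were testable mostly through their AEF373 libraries, so the filter favoured a higher value there. The lead members were pqn-73 (3.10 ± 0.36, adjusted p = 2.1e-07), abu-14 (3.09 ± 0.60, adjusted p = 0.00155), pqn-13 (2.60 ± 0.42, adjusted p = 2.24e-05) and abu-13 (2.56 ± 0.39, adjusted p = 1.23e-05). The gene abu-13 had 8.60, 6.91, 10.1, 2.39 and 4.34 CPM in AEF373, against 0.189, 0.569, 1.32, 1.08 and 1.82 CPM in AEF378, with no overlap. Within batch 1 its log2 fold change was 3.65, and within batch 2, with 2 libraries of each strain, it was 1.23 (adjusted p = 0.230). The 1 member that was lower was pqn-21, with 54.4 to 63.0 CPM in AEF373, against 68.4 to 86.1 CPM in AEF378 (log2 fold change -0.39 ± 0.06, adjusted p = 2.02e-05). The value for abu-11 was 1.05 ± 0.38 (adjusted p = 0.0706), and it was 1.28 (adjusted p = 0.0236) without the second AEF373 library.

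AEF373 against AEF149, which differ in tag, marker and background, gave 14 members higher and 5 lower, against 19% of all genes higher and 13.2% lower, with a median log2 fold change of 0.13 over the members and 0.01 over all genes. At least 2-fold differences were found for 8 members, against 6.08% of all genes. Here too, abu-12 and pqn-26 were testable mostly through their AEF373 libraries, so the filter favoured a higher value in AEF373. The lead members were pqn-73 (4.48 ± 0.40, adjusted p = 1.87e-10), abu-12 (2.69 ± 0.50, adjusted p = 5e-05), abu-13 (2.58 ± 0.37, adjusted p = 1.8e-06) and pqn-13 (2.54 ± 0.40, adjusted p = 4.09e-06), and abu-14 followed at 2.17 ± 0.53 (adjusted p = 0.00371). AEF149 had the higher flp-17 level of the pair, 388 against 301 CPM. The gene abu-12 had 1.98, 2.57, 3.99, 0.898 and 1.12 CPM in AEF373, against 0.859, 0.446, 0.159, 0.453 and 0 CPM in AEF149, with no overlap. The members that were lower in AEF373 were pqn-68 (-0.48), pqn-48 (-0.39), pqn-96 (-0.29), pqn-27 (-0.17) and pqn-70 (-0.17). The value for abu-11 was 0.88 ± 0.37 (adjusted p = 0.0658), and it passed the threshold without the first or the second AEF373 library or without the second AEF149 library, at 1.06, 1.14 and 1.13.

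Across strains the mean level of pqn-73 was 0.994 CPM in the mutant AEF276, 1.15 CPM in AEF378, 9.11 CPM in AEF373 and 0.541 CPM in the AEF149 libraries, against 0.109 CPM in AEF231. The order of flp-17 levels was another one, with AEF276 lowest and AEF149 highest. The mean level of abu-14 was 1.06 CPM in the mutant AEF276, 1.12 CPM in AEF378, 9.21 CPM in AEF373 and 2.64 CPM in the AEF149 libraries, against 0.846 CPM in AEF231; the ranges of AEF276, AEF378, AEF149 and AEF231 overlapped. The 4 comparisons with AEF231 share its 6 libraries, so each AEF231 value enters all 4 fold changes.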

How the data were processed

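Read counts per gene for all 26 libraries were deposited as one table by the authors; alignment used STAR 2.7.11b and build ce11 per the submitters' processing notes. For the counting tool, its strand setting and its handling of reads matching several genes the record is: not given in the sources used here. The labels call the libraries replicates without naming separate cultures; a p-value here reflects library spread, which may be technical. Counts were fitted for all 5 strains at once with edgeR 4.0.16 (R 4.3.3), using TMM scaling, filterByExpr by strain, a strain and a batch term, and robust quasi-likelihood tests. P-values were adjusted by the Benjamini-Hochberg method over 13315 genes, and an adjusted p below 0.05 was called. SE is the log2 fold change divided by the square root of the F statistic. Alternatives included DESeq2 1.42.0, other scalings and filters, single batches and leaving out each library. The script was tested on simulated counts. Named members are the largest rises and falls per comparison plus pqn-73, abu-1, abu-11 and abu-14. The members and lists were chosen with earlier results of these data known. Positions and exon lengths are from the Ensembl annotation of WBcel235. Within a strain no libraries agreed within sampling noise: chi-square per gene was 3.20 to 13.9 over 55 pairs. No grouping by protein sequence was made.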

Additional observations from a re-analysis of the deposited data

Results flagged for a closer look

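In 9 of 155 groups of libraries, made of 31 named genes in 5 strains, 1 library stood apart from the others of its strain by Dixon's criterion; chance alone gives about 1 in 20 such groups. The abu genes had 2 of these. The level of abu-13 was 0.488 CPM in the fourth AEF276 library, against 0.928 to 1.15 CPM in the others of that strain. The level of abu-12 was 0.951 CPM in the fourth AEF231 library, against 0.0868 to 0.282 CPM in the others.

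The gene pqn-48 had a library apart in 3 strains. It was highest, at 15.6 CPM, in the first AEF378 library (others 11.1 to 11.9 CPM) and, at 13.4 CPM, in the third AEF373 library (others 10.6 to 10.9 CPM), and lowest, at 12.3 CPM, in the second AEF149 library (others 15.1 to 16.2 CPM). The remaining genes had 1 each. The level of pqn-74 was 4.73 CPM in the first AEF378 library (others 1.83 to 2.18 CPM), and that of pqn-60 was 2.19 CPM in the fourth AEF373 library (others 3.37 to 3.95 CPM). The level of pqn-75 was 15.2 CPM in the second AEF149 library (others 9.51 to 10.8 CPM), and that of pqn-20 was 377 CPM in the fourth AEF231 library (others at most 335 CPM).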

How the results depend on the processing

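With upper-quartile scaling, AEF276 against AEF231 had 2 members higher and 5 lower, AEF373 against AEF231 had 3 lower, and AEF373 against AEF149 had 3 lower. At an adjusted p below 0.01, AEF276 had 2 higher, AEF373 3 lower and AEF149 1 higher than AEF231, and AEF373 had 3 lower than AEF149. At a further minimum of 2-fold, AEF276 had 1 higher and 1 lower, AEF378 1 higher, AEF373 8 higher and 0 lower, and AEF149 1 higher and 0 lower than AEF231; AEF373 had 0 lower than AEF378, and 8 higher and 0 lower than AEF149. In AEF276, the rises numbered 2 with batch 1 alone and 1 with only AEF276 and AEF231 fitted. With batch 2 alone, AEF378 had 2 higher and 1 lower, AEF373 8 higher and 0 lower than AEF231, and AEF373 3 higher than AEF378. Without the third AEF373 and the second AEF149 library together, a setting chosen after seeing the data like batch 2 alone, AEF149 had 3 higher. Leaving out 1 library at a time gave 2 to 9 rises and 2 to 4 falls in AEF276, 4 to 6 rises in AEF378, 16 to 20 rises and 3 to 5 falls in AEF373, and 2 to 8 rises and 2 to 3 falls in AEF149, and 7 to 10 higher in AEF373 than AEF378 and 14 to 17 higher and 4 to 7 lower than AEF149. The sign of abu-14 turned in AEF276 against AEF231 with batch 1 alone (0.60), no batch term (0.32), the replicate block (0.27) and without the sixth AEF231 library (0.21), and in AEF378 against AEF231 by DESeq2 (-0.26), with batch 2 alone (-6.76), without the second AEF231 library (-0.01) and without the first AEF378 library (-0.50). The sign of pqn-15 in AEF373 turned with batch 2 alone (0.040). Leaving out 1 library gave abu-14 values of -0.46 to 0.21 in AEF276 and -0.50 to 0.71 in AEF378. The cause of these changes was not tested. The counts above are of members only and stand without the share over all genes in the same setting, so a change in them is not particular to the members.

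Replicate numbers showed no sign of pairing the libraries of different strains. The residual correlation of same-numbered libraries had a median of -0.03, with 1 of 50 pairs over 0.1. For other-numbered libraries the median was 0.0073, with 27 of 220 pairs over 0.1. Pairing by the labels' group number was not tested. With the replicate block, 3 members rose in AEF276 in place of 6. Depth limits the 26 untested members and the fold changes of pqn-73, abu-12, abu-13, pqn-13 and pqn-26, whose AEF231 libraries held 0 to 11 reads.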
